A study of Mus musculus with 4 samples.

Results

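The data described here are a pair of single-cell RNA libraries from control mice, 1 of cells sorted as Sca-1-negative and 1 of cells sorted as Sca-1-positive. All barcodes with 200 or more genes and less than 10% of UMIs (unique molecular identifiers, which count captured RNA molecules) from mitochondrial genes were taken, with no choice by cell type. This gave 351 of 362 barcodes of the Sca-1-negative library and 806 of 837 barcodes of the Sca-1-positive library, together 1157 of the 3567 cells kept over the 4 libraries of the series. For each gene the UMIs of a library were summed and scaled to the library's total as CPM (counts per 1e+06 UMIs), and the ratio between both libraries was formed. A second version left out Jchain-high cells, defined as cells with at least 2% of their UMIs from Jchain, the joining chain of secreted IgA and IgM.

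Both libraries came from CDH5-CreER mice of the genotype ID1+/+ ID3+/-, which the sample titles call WT, so that the controls carry 1 intact copy of Id3. CDH5-CreER is a Cre made active by tamoxifen and driven by the promoter of the VE-cadherin gene, which is used in blood vessels. Tamoxifen was injected into the peritoneum over 5 days to delete Id1, by a protocol given for all samples, controls included. Per the labels, 20000 lineage-negative cells positive for CD31, VE-cadherin and endomucin were sorted, with the Sca-1-negative gate labelled as sinusoidal endothelium and the Sca-1-positive gate as type H vessels, a capillary type of bone. The other pair of libraries holds the same gates from mice of the labelled genotype ID1-/- ID3-/-. It shares no library with the control pair and served as a second measurement of the gate difference. Id3 stood at 84.8 and 84.9 CPM in that pair, against 54.7 and 33.0 CPM in the Sca-1-negative and Sca-1-positive controls, so it is called the labelled-knockout pair throughout. How many mice went into a library is not stated in the labels. With 1 library per group no difference has a replicate check, no p-value is given, and the 95% intervals hold counting error alone.

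Sca-1, the product of Ly6a, is a surface protein anchored to the outer membrane, found on blood stem cells and early progenitors, on arteriolar endothelium and on some lymphoid cells. Myeloid precursors lose it as they mature and then make the contents of their granules in sequence, first the serine proteases and myeloperoxidase of the primary granules and later lactoferrin and the S100 proteins. Blood stem cells and vessel endothelium share several surface proteins, endomucin and CD31 among them, so genes of both cell types are described side by side here.

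The kept cells gave 3179782 UMIs in the Sca-1-negative library and 5638299 in the Sca-1-positive library, with medians of 6142 and 6420 UMIs and of 1971 and 2284 genes per cell. No barcode was shared between both libraries. Jchain-high cells were 2 of 351 (0.570%) and 108 of 806 (13.4%, 11.1 to 15.9), and 1 cell per library lay between 1% and 4% Jchain. Genes named Rpl or Rps took 23.7% and 31.3% of the UMIs, and mitochondrial genes 2.60% and 3.62%. Xist and Y-linked UMIs showed cells of both sexes in both libraries. A level is a share of the RNA of a whole library: more cells of a type and more RNA per cell cannot be told apart in it. Near-identical gene copies (Hba-a1 and Hba-a2, the Ly6, Sirpb1, Klra and H2-Q genes) can share reads, and the values of single copies are uncertain for that reason.

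Promoter sequences are shown for the neutrophil protease genes Elane and Prtn3, which are neighbours on chromosome 10 but differed between the gates in different ways, for Ctsg, a protease gene on chromosome 14 that went with Elane, and for Hlf, a stem cell gene of the opposite gate. Each runs 5′ to 3′ on the gene's own strand from 250 bases before the RefSeq start (GRCm38.p6) up to that start or, for Elane and Prtn3, up to a GENCODE exon of the gene that begins before it. The Prtn3 stretch lies in an intron of a longer noncoding GENCODE transcript, and the others lie upstream of their gene. Capitals mark GAGGAAGT on either strand, a sequence bound by PU.1, the myeloid transcription factor encoded by Spi1. The windows are chr10:79886062-79886246 on the plus strand for Elane, chr10:79879417-79879613 on the plus strand for Prtn3, chr14:56102575-56102824 on the minus strand for Ctsg and chr11:90390918-90391167 on the minus strand for Hlf.
Elane: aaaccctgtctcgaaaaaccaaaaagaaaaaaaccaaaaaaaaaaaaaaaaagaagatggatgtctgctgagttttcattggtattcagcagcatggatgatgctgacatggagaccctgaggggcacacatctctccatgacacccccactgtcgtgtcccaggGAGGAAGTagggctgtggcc
Prtn3: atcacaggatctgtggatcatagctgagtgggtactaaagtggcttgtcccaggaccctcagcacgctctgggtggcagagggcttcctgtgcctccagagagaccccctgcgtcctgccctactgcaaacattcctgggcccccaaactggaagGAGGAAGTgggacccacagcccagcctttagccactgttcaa
Ctsg: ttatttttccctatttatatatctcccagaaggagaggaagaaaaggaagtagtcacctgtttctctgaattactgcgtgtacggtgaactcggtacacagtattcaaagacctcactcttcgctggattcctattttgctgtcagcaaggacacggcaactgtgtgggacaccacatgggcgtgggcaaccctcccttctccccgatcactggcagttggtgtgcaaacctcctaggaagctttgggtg
Hlf: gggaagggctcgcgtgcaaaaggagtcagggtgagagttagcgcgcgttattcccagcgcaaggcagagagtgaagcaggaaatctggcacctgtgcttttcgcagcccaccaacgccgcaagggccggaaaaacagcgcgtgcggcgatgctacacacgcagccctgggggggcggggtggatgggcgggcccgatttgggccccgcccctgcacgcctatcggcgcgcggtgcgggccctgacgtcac

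The 8 bases begin 85 bases before the RefSeq start of Elane and 95 bases before that of Prtn3. Within the full 250 bases they were found in 4 of the 7 primary granule genes with a promoter in the table, namely Ctsc, Prtn3, Elane and Mpo, in 3 of 12 later neutrophil genes (25%) and in 0 of 13 stem and progenitor genes. Over all genes with a promoter the share was 2.79%, and over the genes with a mean of at least 10 CPM it was 3.18%. It was 5.46% of the genes at least 2-fold higher in the Sca-1-negative library and 2.23% of those at least 2-fold higher in the Sca-1-positive library. The sequence was chosen after the promoters had been read, and a match is a description of letters, not of binding. Other forms of the PU.1 site were not searched. The E-box letters CANNTG, bound by the E proteins that Id1 and Id3 hold back, were found in 3 of 7 primary granule, 10 of 13 stem and progenitor and 60.4% of all tested promoters, and the GATA letters AGATAA in 0 of 7, 0 of 13 and 7.23%. Among the later neutrophil genes the E-box letters were found in 7 of 12 and the GATA letters in 3 of 12, as many as held the PU.1 letters. The GATA letters were in 10.5% of the promoters of genes at least 2-fold higher in the Sca-1-negative library and 8.64% of those at least 2-fold higher in the Sca-1-positive library. For the E-box letters these shares were 67.6% and 63.9%, so they did not repeat the order of the primary granule and stem and progenitor lists.

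The Sca-1-negative library was led by genes of neutrophil precursors, monocytes and red cells, and the Sca-1-positive library by genes of blood stem and progenitor cells and of plasma cells. Of 7886 genes with a mean of at least 10 CPM over both libraries, 725 (9.19%) were at least 2-fold higher in the Sca-1-negative library and 1449 (18.4%) at least 2-fold higher in the Sca-1-positive library. Both shares are the background for all list counts over all kept cells that follow. The difference reached 10-fold for 159 and 136 genes, while 50.4% of the genes lay within 1.5-fold. The median log2 ratio, Sca-1-negative over Sca-1-positive, was -0.27, and centring on it gave 1023 and 981 genes, so that the Sca-1-negative library held 51.0% of the calls in place of 33.3%. Without Jchain-high cells 713 of 7945 genes (8.97%) and 1653 (20.8%) passed, and 650 of the 725 and 1383 of the 1449 genes kept a difference of at least 2-fold in the same direction. In the totals that left out Jchain, mitochondrial and ribosomal protein genes, the split was 639 to 2628 genes.

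**Figure D1:**
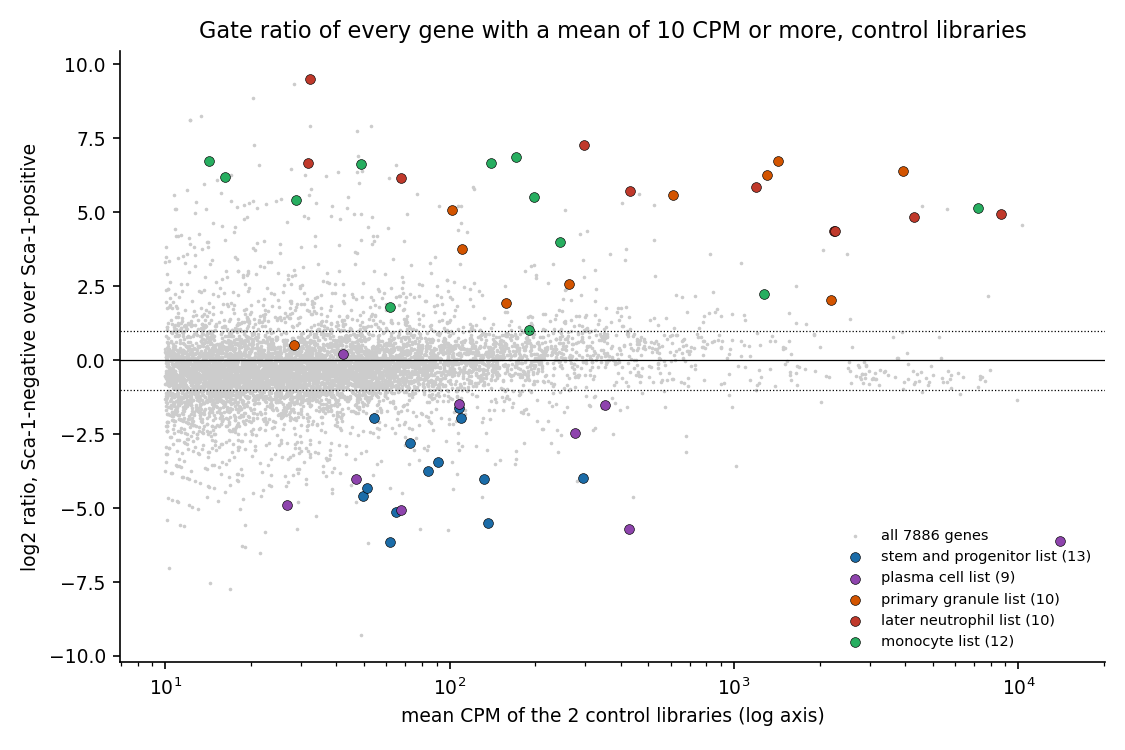
Mean CPM of both control libraries (log axis) against the log2 ratio, Sca-1-negative over Sca-1-positive, for the 7886 genes with a mean of at least 10 CPM, with members of 5 gene lists in colour and dotted lines at 2-fold. All 13 stem and progenitor genes and 8 of the 9 plasma cell genes lie below the lower line, and all 10 later neutrophil and 12 monocyte genes above the upper one.

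Of the 4 genes of antigens used in the sort, Ly6a and Emcn were at least 2-fold higher in the Sca-1-positive library, Pecam1 was near level and Cdh5 was below the level filter. Ly6a, the Sca-1 gene (chr15:74994877-74998031, GRCm38), stood at 34.3 CPM in the Sca-1-negative and 848 CPM in the Sca-1-positive library, 24.7-fold higher in the latter (20.5 to 30.2), and 15.1-fold without Jchain-high cells. It was seen in 50 of 351 and 684 of 806 cells. After every cell was thinned to 2000 UMIs, which left out 16 Sca-1-positive cells, the shares were 4.84% and 54.9%, and 98.1% of the Jchain-high cells of the Sca-1-positive library. Pecam1, which encodes CD31, was nearly level at 44.3 and 41.5 CPM (ratio 1.07, 0.861 to 1.32), and Cdh5, the VE-cadherin gene, gave only 7 and 16 UMIs. Emcn, the endomucin gene, stood at 1.89 and 42.4 CPM, 22.5-fold higher in the Sca-1-positive library (10.2 to 61.8), although both gates were sorted as endomucin-positive.

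Genes of lineage antigens, whose products a lineage-negative sort removes, were present in the Sca-1-negative library. Ptprc, the CD45 gene of all white cells, stood at 173 and 94.3 CPM, a ratio of 1.84 (1.63 to 2.07). Itgam, which encodes CD11b of myeloid cells, stood at 87.7 and 25.01 CPM (3.51, 2.85 to 4.33). Ly6g, a neutrophil antigen, stood at 37.4 CPM in the Sca-1-negative library from 35 cells and gave 7 UMIs in the Sca-1-positive library. The T lymphocyte antigen genes were low in both: Cd3e gave 0 and 16 UMIs, Cd4 11 and 31, Cd5 1 and 10, and Cd8a 4 and 29.

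Genes of sinusoidal and type H endothelium were low, and most of the defining ones were at or near 0. Of 8 sinusoidal genes 0 reached a mean of 10 CPM. Stab2, a scavenger receptor of sinusoids, gave 0 UMIs in the Sca-1-negative library, and so did Flt4, Lyve1 and Gpr182, where 0 UMIs allow up to 0.943 CPM, the level of 3 UMIs. Fabp4, a fatty acid binding protein also made by macrophages, gave 57 UMIs there and 4 in the Sca-1-positive library, a ratio of 25.3 (9.35 to 95.9). Stab1, which macrophages use as well, gave 22 in the Sca-1-negative library. Summed, the 8 sinusoidal genes stood at 26.7 and 4.26 CPM, of which Fabp4 gave 17.9 and 0.709 CPM. Of 10 arteriolar and type H genes only Ly6c1, which myeloid cells share, passed the level filter. Vegfc, a growth factor of lymphatic vessels, lay just below it with 7 and 95 UMIs, and without Jchain-high cells it passed at a log2 ratio of -3.04. Its log2 ratio was -3.91 in the labelled-knockout pair. Bmx, a kinase of arterial endothelium and of myeloid cells, gave 29 and 1 UMIs, and each of the other 7 gave at most 6 UMIs in either library. UMIs of at least 3 sinusoidal, 3 arteriolar and type H or 3 stromal genes were seen in 0 of 351 and 0 of 790 thinned cells. With 3 cells as the limit of a count of 0, this allows shares of up to 0.855% and 0.380% of cells with such UMIs. Of 8 pan-haematopoietic genes at least 3 were seen in 85.2% (81.0 to 88.7) and 49.0% (45.5 to 52.5) of thinned cells, and in 96.3% and 93.2% of cells before thinning.

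Of the primary granule genes, made at the promyelocyte stage of neutrophil development, 9 of 10 were at least 2-fold higher in the Sca-1-negative library, with a median log2 ratio of 4.40. Elane (chr10:79886247-79888215), neutrophil elastase, stood at 7757 CPM in the Sca-1-negative and 92.2 CPM in the Sca-1-positive library, a ratio of 84.1 (77.1 to 91.9). Mpo, myeloperoxidase, stood at 2827 and 26.6 CPM (106, 90.4 to 126), and Ctsg, cathepsin G, at 2572 and 33.9 CPM (75.9, 65.8 to 88.1). Most of these UMIs in the Sca-1-positive library came from very few cells. A single cell held 382 of its 520 Elane UMIs, and without the cell richest in Elane in each library the ratio was 309 (261 to 368). The same step raised the ratio of Mpo to 465 and of Ctsg to 125. In the Sca-1-negative library 50% of the UMIs lay in 24 cells for Elane, 21 for Mpo and 20 for Ctsg, out of 282, 228 and 216 cells with a UMI.

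Other genes of the same stage followed with ratios between 1.42 and 48.3. Ms4a3, a membrane protein of granulocyte and monocyte precursors, stood at 1198 and 24.8 CPM (48.3), Cebpe, the C/EBP factor of granule formation, at 198 and 5.85 CPM (33.9), and Prss57, a further granule protease, at 206 and 15.2 CPM (13.5). Serpinb1a, an inhibitor of these proteases, had a ratio of 5.995 and Ctsc, which activates them by removing a dipeptide, one of 3.80. Gfi1, a repressor used by stem cells and by neutrophil precursors, was the member below 2-fold, at 33.3 and 23.4 CPM.

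Prtn3, proteinase 3, differed from its neighbour Elane. Both genes lie on the plus strand of chromosome 10 with 3072 bases between the end of Prtn3 (chr10:79874476-79883174) and the start of Elane. Prtn3 stood at 3544 and 858 CPM, a ratio of 4.13 (3.99 to 4.27), and 3.59 without Jchain-high cells. It was seen in a larger share of the cells of the Sca-1-positive library, with 67.8% against 42.5% of thinned cells, whereas Elane was seen in 0.633% against 57.8%. Before thinning the shares were 80.3% and 61.8% for Prtn3 and 1.49% and 80.3% for Elane. Among Jchain-high cells of the Sca-1-positive library, which should make neither protein, Prtn3 was seen in 6.60% and Elane in 0 of 106 thinned cells (a 0 that allows up to 2.83%, the share of 3 cells), at median depths of 7104 UMIs in Jchain-high and 6340 in the other cells before thinning. The Sca-1-positive UMIs of Prtn3 were spread over many cells, with 50% of them in 157 cells. The labelled-knockout pair gave 5075 and 900 CPM for Prtn3 and 11728 and 58.8 CPM for Elane. In both pairs Prtn3 was abundant in the Sca-1-positive library and Elane was low there.

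Genes of later neutrophils were at least 2-fold higher in the Sca-1-negative library for 10 of the 10 members that passed the level filter, out of 13 listed, with a median log2 ratio of 5.77. S100a8 and S100a9, which form calprotectin, stood at 16890 and 8280 CPM in the Sca-1-negative library against 552 and 287 CPM. Ratios of 30.6 (29.5 to 31.8) and 28.9 (27.4 to 30.4) became 72.4 and 74.7 without the richest cell of each library. Ngp and Camp, proteins of the secondary granules, stood at 4317 and 4297 CPM against 212 and 210 CPM, and their ratios of 20.4 became 218 and 124 in the same way. Ltf, lactoferrin, had a ratio of 158 (103 to 256), from 588 and 3.73 CPM. All 21 of its UMIs in the Sca-1-positive library lay in 1 cell, and in the Sca-1-negative library 5 of 79 positive cells held 50%.

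The later neutrophil list also held genes with few or no UMIs in the Sca-1-positive library. Mmp8, the neutrophil collagenase, gave 206 and 0 UMIs and was at least 122-fold higher in the Sca-1-negative library, set against 3 UMIs over the Sca-1-positive library. Retnlg, a resistin-like protein of neutrophils, gave 201 and 3 UMIs, a ratio of 119 (40.1 to 581), and Cd177, a neutrophil surface protein, 425 and 10 UMIs (75.4). Chil3, a chitinase-like protein of neutrophils and monocytes, stood at 2348 and 41.0 CPM (57.3), and Lcn2, which binds bacterial siderophores, at 848 and 16.1 CPM (52.6). The mature neutrophil receptor gene Cxcr2 was near background in both gates, with 8 and 2 UMIs.

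Monocyte genes were at least 2-fold higher in the Sca-1-negative library for 12 of 12 members, with a median log2 ratio of 5.46. Lyz2, lysozyme, stood at 13978 and 398 CPM (35.1, 33.6 to 36.6). It was seen in 90.3% and 35.7% of thinned cells (99.2% and 67.2% unthinned). In thinned Jchain-high cells of the Sca-1-positive library the share was 3.77%. Ccr2, the chemokine receptor that lets monocytes leave the marrow, stood at 389 and 8.51 CPM (45.7, 34.2 to 62.3), and Csf1r, the receptor of the main macrophage growth factor, at 96.5 and 0.887 CPM (109, 46.1 to 338). F13a1, a clotting factor subunit made by monocytes, stood at 339 and 2.84 CPM (119, 73.2 to 210), and Fn1, fibronectin, at 277 and 2.66 CPM (104, 62.8 to 187). The UMIs of these genes were less concentrated than those of Elane, Mpo and Ctsg. In the Sca-1-negative library 50% of them lay in 44 cells for F13a1, 47 for Ccr2 and 65 for Lyz2. F13a1 and Ccr2 were nevertheless seen in fewer cells, with a UMI in 188 and 196 cells against 282 for Elane. Irf8, which monocytes share with dendritic and B cells, had the smallest ratio of the list, 2.01 (1.82 to 2.23).

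Among the 12 genes named by their ratio toward the Sca-1-negative library, those whose interval lay farthest from 1, were paired receptors of myeloid cells. Sirpb1b gave 202 and 0 UMIs, at least 119-fold higher, and Sirpb1c, a signal-regulatory protein like it, 336 and 2 UMIs, a ratio of 298 (81.8 to 2470). Klra2, a Ly49 receptor, gave 180 and 0 UMIs in 100 Sca-1-negative cells, at least 106-fold higher. Klra4, another Ly49 receptor, known from natural killer cells, gave 129 and 0 UMIs in 14 cells, at least 76.2-fold higher. Nonclassical monocyte genes passed the filter for 5 of 8 members. Of these 4 were at least 2-fold higher in the Sca-1-negative library, beside 9.19% of all genes tested. Among them were Ear2, a ribonuclease, at 61.3 and 0.709 CPM, and Fcgr4, an IgG receptor, at 33.6 and 1.42 CPM. Spn, the CD43 gene, stood at 75.2 and 102 CPM. In the labelled-knockout pair 3 members passed, 0 were at least 2-fold higher in either library, and the median log2 ratio was -0.12. Ear2, below the filter there, had a ratio of 4.54.

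Red cell genes were higher in the Sca-1-negative library for the globins and Alas2, but Car2 was the reverse. Hbb-bs, a beta globin, stood at 19700 and 822 CPM (24.0, 23.3 to 24.7), Hba-a1 at 10915 and 318 CPM and Hba-a2, both alpha globins, at 8911 and 240 CPM. A handful of cells carried this RNA: 7 cells of the Sca-1-negative library held 50% of its Hbb-bs UMIs, yet 341 of 351 cells had at least 1. In the Sca-1-positive library 1 cell held 4564 of the 4633 Hbb-bs UMIs, and without the richest cell of each library the ratio was 1477 (1167 to 1899). Alas2, the red cell enzyme that starts haem synthesis, stood at 102 and 6.21 CPM in 16 and 1 cells.

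Car2, carbonic anhydrase 2, stood at 141 and 1212 CPM, 8.58-fold higher in the Sca-1-positive library (7.80 to 9.46), and was seen in 74.3% of its thinned cells against 9.40% of Sca-1-negative and 6.60% of Jchain-high cells. Unthinned, the shares were 83.4% and 16.8%. Hbb-bt, the second adult beta globin gene (chr7:103812524-103813996), differed from Hbb-bs (chr7:103826534-103828096) in its spread. It was seen in 15.1% of thinned Sca-1-positive and 21.1% of thinned Sca-1-negative cells, where Hbb-bs was seen in 1.77% and 79.8%. Unthinned, these shares were 25.8% and 50.7% for Hbb-bt and 8.56% and 97.2% for Hbb-bs. Thinned Jchain-high cells of the Sca-1-positive library gave 8.49% for Hbb-bt and 2.83% for Hbb-bs. Without the richest cell Hbb-bt stood at 233 CPM in the Sca-1-positive library and Hbb-bs at 12.3 CPM. Of the erythroid list 8 of 14 members passed the level filter, 6 of them at least 2-fold higher in the Sca-1-negative library and 1, Car2, in the Sca-1-positive one.

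Smaller lineages lay on either side. Natural killer and T cell genes passed for 5 of 13 listed members, 4 of them at least 2-fold higher in the Sca-1-negative library: Nkg7, a granule membrane protein that early myeloid cells use as well, at 984 and 59.1 CPM (16.7), and Gzma, granzyme A, at 66.0 and 1.60 CPM (41.4). Cd3e, Cd3d, Cd3g and Cd247, the T cell receptor signalling genes, were all under the filter and had their higher level in the Sca-1-positive library. The list turned in the labelled-knockout pair, with 3 of the 4 members that passed, Cd3g, Lck and Ccl5, at least 2-fold higher in the Sca-1-positive library, Nkg7 in the other, and a median log2 ratio of -1.98. Ncr1, the receptor that defines natural killer cells, gave 46 and 0 UMIs. Basophil and mast cell genes were at least 2-fold higher in the Sca-1-negative library for 6 of 7, beside 9.19% of all genes tested. The list's median log2 ratio was 2.14. Prss34, a basophil protease, stood at 966 and 519 CPM and Mcpt8, its neighbour in function, at 549 and 163 CPM. In the Sca-1-positive library 1448 of the 2925 Prss34 UMIs came from 1 cell, and in the labelled-knockout pair both genes were near 0 in the Sca-1-positive library, at 0.0907 and 0.454 CPM against 2266 and 1491 CPM.

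Of the dendritic cell genes that passed the filter, 0 were at least 2-fold higher in the Sca-1-negative library. Of 9 plasmacytoid dendritic genes 3, namely Ly6d, Tcf4 and Runx2, were at least 2-fold higher in the Sca-1-positive library, beside 18.4% of all genes tested. The list's median log2 ratio was -0.28, close to the -0.27 over all genes tested. Conventional dendritic genes passed for 4 of 10, with a median of -0.63 and 0 of them past 2-fold. These 4, Cd74, H2-Aa, H2-Ab1 and H2-Eb1, are class II genes of antigen presentation that B cells use as well. In the Sca-1-negative library 50% of their UMIs lay in 7, 6, 8 and 4 cells. In the labelled-knockout pair 4 of 4 were at least 2-fold higher in the Sca-1-positive library, with a median of -3.86. So were 4 of 4 in control cells that had Y-linked RNA without Xist, with a median of -1.86. UMIs of at least 3 conventional dendritic genes were seen in 8.55% (5.84 to 11.98) and 14.6% (12.2 to 17.2) of thinned cells and in 17.9% of Jchain-high cells, and before thinning in 9.97% and 37.3%. Xcr1 and Clec9a, which define cross-presenting dendritic cells, gave 0 and 0 and 6 and 2 UMIs.

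Ppbp and Pf4, chemokines stored in platelets, had ratios of 49.96 (30.9 to 86.5) and 4.75 (3.91 to 5.80) that rested on few cells. In the Sca-1-negative library 1 cell held 468 of 479 Ppbp UMIs and 1 cell held 159 of 383 Pf4 UMIs, and without the richest cell of each library the ratios were 1.30 and 2.98. Pf4 was seen in 96 Sca-1-positive cells and 17 Sca-1-negative cells. Vwf, also used by stem cells that lean to platelets, was 4.85-fold higher in the Sca-1-positive library. Prg2, an eosinophil granule protein that plasma cells can make, was level at 449 and 453 CPM over all cells. Without Jchain-high cells it stood at 450 and 21.7 CPM, a ratio of 20.8, but 1 Sca-1-negative cell held 919 of its 1428 UMIs.

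On the other side, 13 of the 13 stem and progenitor genes that passed the filter, out of 15 listed, were at least 2-fold higher in the Sca-1-positive library, with a median log2 ratio of -3.98. Procr, the protein C receptor used to sort stem cells, stood at 1.57 and 122 CPM, 77.6-fold higher (33.1 to 240). Hlf, a transcription factor of stem cells (chr11:90336536-90390895), stood at 5.66 and 267 CPM, 47.1-fold higher (29.7 to 79.8), and was seen in 42.7% of thinned Sca-1-positive cells against 0.285% of Sca-1-negative and 1.89% of Jchain-high cells. Unthinned, the shares were 69.1% and 4.27%. Mecom, a factor of stem cell upkeep, was 25.3-fold higher. Fgd5 and Slamf1, the members below the filter, gave 0 and 75 and 7 and 93 UMIs.

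Members shared with later progenitors differed less. Kit, the stem cell factor receptor, stood at 22.01 and 86.9 CPM (3.95-fold), Cd27, a receptor of the tumour necrosis factor family, at 44.7 and 174 CPM (3.90-fold), and Cd34, a sialomucin of progenitors, at 53.1 and 163 CPM (3.06-fold, 2.59 to 3.63). Between these and the stem cell factors lay Meis1, a homeobox partner of Hoxa9, at 15.1 and 249 CPM (16.5-fold), Adgrg1, an adhesion receptor, at 35.2 and 556 CPM (15.8-fold), and Hoxa9 at 17.9 and 127 CPM (7.10-fold). In the Sca-1-positive library these genes were spread over many cells: 50% of the Hlf UMIs lay in 159 cells, of Procr in 117 and of Meis1 in 152.

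The 12 genes named by their ratio toward the Sca-1-positive library held further genes of that kind beside Jchain. Meg3, an imprinted long noncoding RNA (chr12:109541001-109571726), gave 0 and 550 UMIs and was at least 103-fold higher, in 114 cells of which 19 held 50%. Gas6, the ligand of the TAM receptor kinases, gave 0 and 162 UMIs, at least 30.4-fold higher, and Wfdc2, a secreted protein of the whey acidic protein family, 0 and 190 UMIs, at least 35.7-fold higher. Nkx2-3, a homeobox factor, stood at 3.46 and 194 CPM (56.1-fold, 31.2 to 113), and Trim47, a RING finger protein, at 2.83 and 155 CPM (54.8-fold). Sult1a1, a sulfotransferase, was 81.5-fold higher (31.7 to 300), and Clec1a, a C-type lectin, gave 3 and 323 UMIs (60.7-fold). Vldlr, a lipoprotein receptor, and Nap1l3, a nucleosome assembly protein, each gave 1 UMI in the Sca-1-negative library and 242 and 208 in the other.

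Endothelial genes that passed the filter also lay in the Sca-1-positive library, for 5 of 6 members out of 15 listed, with a median log2 ratio of -3.39. Eng, endoglin, a TGF-beta co-receptor also on stem cells, stood at 8.81 and 103 CPM (11.7-fold), Esam, a junction molecule of vessels and stem cells, at 5.66 and 72.7 CPM (12.8-fold), and Egfl7, a secreted vessel protein, at 16.7 and 123 CPM (7.39-fold). Tie1, an angiopoietin co-receptor, stood at 3.15 and 31.8 CPM (10.1-fold). Among the members below the filter were Kdr at 1 and 15 UMIs, Ptprb at 0 and 1, Plvap at 2 and 0 and Flt1 at 17 and 4 UMIs. They do not stand for all members below it, since Tek, Cldn5, Ramp2 and Robo4 are not given here. Summed, the 15 endothelial genes stood at 89.9 and 460 CPM. UMIs of at least 3 endothelial genes were seen in 0 of 351 and 45 of 790 thinned cells (5.70%, 4.18 to 7.55). Before thinning they were seen in 4.84% and 41.1%, and in 0 of 106 Jchain-high cells after it. The low sinusoidal and type H genes and the pan-haematopoietic shares given above went against the label of vessel endothelium in both gates. The cells are called by their Sca-1 gate here.

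**Figure D2:**
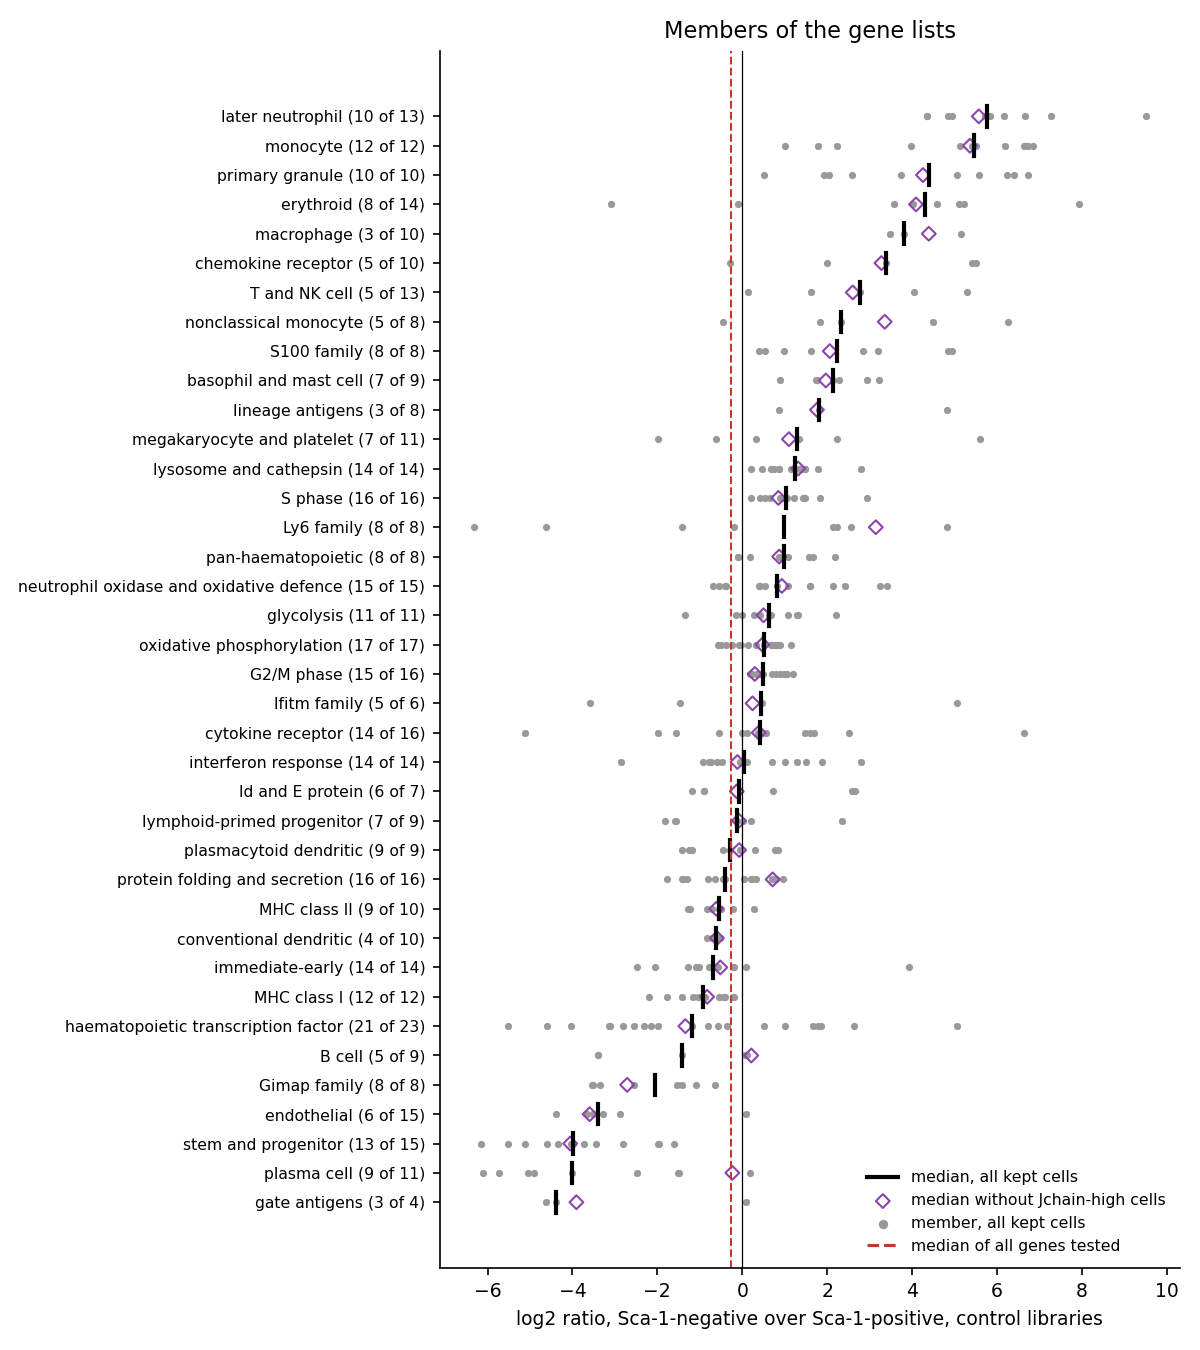
Log2 ratio, Sca-1-negative over Sca-1-positive control library, of the members of each gene list that passed the level filter (points), their median over all kept cells (bar) and without Jchain-high cells (diamond), with the number passed of those listed and a dashed line at the median of all genes tested. The later neutrophil, monocyte and primary granule medians lie between 4.40 and 5.77 and the stem and progenitor median at -3.98, while the plasma cell median moves from -4.01 to -0.23.

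Plasma cell genes were at least 2-fold higher in the Sca-1-positive library for 8 of the 9 members that passed, with a median log2 ratio of -4.01, and most of this rested on the Jchain-high cells. Jchain stood at 401 and 27625 CPM, 68.9-fold higher (65.2 to 72.9), and 16.8 and 476 CPM without Jchain-high cells. In the Sca-1-negative library 1 cell held 946 of 1275 Jchain UMIs. Mzb1, a chaperone of antibody assembly, stood at 15.7 and 838 CPM (53.3-fold), and Derl3, a protein of misfolded chain removal, at 3.77 and 131 CPM (34.7-fold). Tnfrsf17, the survival receptor BCMA, gave 5 and 293 UMIs. Xbp1, the transcription factor of secretion, was 2.84-fold higher over all cells, and 159 and 123 CPM without Jchain-high cells. Without those cells the list's median was -0.23, near the median of -0.32 over all genes, but 3 of the 7 members that passed, Jchain (28.4-fold), Mzb1 (4.86-fold) and Sdc1 (11.7-fold), a surface proteoglycan of plasma cells, were still at least 2-fold higher in the Sca-1-positive library, beside 20.8% of all genes tested. The 12 immunoglobulin constant genes listed matched no row of the files and were not analysed here.

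Genes of protein folding and secretion turned with the same cells. Over all cells 4 of 16 were at least 2-fold higher in the Sca-1-positive library, a share near the 18.4% over all genes tested, and 0 in the other. Without Jchain-high cells 0 and 6 were, beside 20.8% and 8.97% of all genes, and the median log2 ratio went from -0.41 to 0.72. Edem1, which marks misfolded glycoproteins for removal, stood at 79.9 and 211 CPM over all cells and 66.5 and 16.9 CPM without Jchain-high cells. Sdf2l1, an endoplasmic reticulum chaperone partner, had a ratio of 1.94 that became 9.94, and Herpud1, a stress-induced membrane protein, was 3.44-fold higher in the Sca-1-positive library over all cells and nearly level, at 76.3 and 80.5 CPM, without them. B cell genes did likewise: the median of 5 of 9 members was -1.42 over all cells and 0.21 without Jchain-high cells, with Cd79a, a B cell receptor chain, at 26.1 and 274 CPM and then 23.8 and 26.6 CPM.

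The transcription factors of blood cells divided between the gates. Of 21 tested, out of 23 listed, 11 were at least 2-fold higher in the Sca-1-positive and 6 in the Sca-1-negative library. Over all genes tested the shares were 18.4% and 9.19%. Beside Hlf, Mecom and Meis1, the Sca-1-positive library held more Erg, an ETS factor of stem cells (8.97-fold), Lmo2, a bridging protein of stem cell complexes (5.86-fold, at 198 and 1158 CPM), Tal1 (5.02-fold), its helix-loop-helix partner, and Gata2 (4.43-fold), a zinc finger factor of progenitors. The Sca-1-negative library held more Cebpb (6.21-fold) and Cebpa (3.61-fold), C/EBP factors of myeloid cells, and more Spi1, at 378 and 120 CPM (3.16, 2.88 to 3.48). Runx1 and Fli1, needed from stem cells to mature lineages, were within 1.5-fold.

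Id genes and E protein genes stood on opposite sides. Id1 (chr2:152736251-152737410) stood at 26.1 and 4.08 CPM, 6.40-fold higher in the Sca-1-negative library (3.99 to 10.6), with 83 and 23 UMIs. Id2, an inhibitor of E proteins in myeloid and innate lymphoid cells, stood at 134 and 22.4 CPM (6.01, 4.92 to 7.39), and Id3 (chr4:136143497-136145755) at 54.7 and 33.0 CPM (1.66, 1.34 to 2.05). Thinned shares in Jchain-high cells of the Sca-1-positive library were 0%, 1.89% and 0% for Id1, Id2 and Id3. Over all thinned cells the shares were 5.13% and 0.759% for Id1, 24.8% and 2.66% for Id2 and 13.7% and 5.70% for Id3. Unthinned, they were 13.7% and 1.61% for Id1, 47.9% and 7.82% for Id2 and 28.5% and 17.4% for Id3. The E protein genes Tcf3, Tcf4 and Tcf12 were 1.86-fold (1.54 to 2.25), 2.29-fold (1.94 to 2.72) and 1.88-fold (1.44 to 2.48) higher in the Sca-1-positive library. In the labelled-knockout pair the ratio was 8.78 for Id1, 2.16 for Id2 and 0.999 for Id3, and Tcf3, Tcf4 and Tcf12 were 1.41-fold, 3.49-fold and 2.15-fold higher in the Sca-1-positive library.

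Of 16 cytokine receptor genes listed, 14 passed, with a median log2 ratio of 0.42. Of these 5 were at least 2-fold higher in the Sca-1-negative and 3 in the Sca-1-positive library. Over all genes tested the shares were 9.19% and 18.4%, so the 3 of 14 lay near the share of all genes. Receptors of stem and early progenitor cells, Kit and Flt3, were 3.95-fold and 2.97-fold higher in the Sca-1-positive library. Those of myeloid growth factors, Csf1r, Csf2ra and Csf2rb, had ratios of 109, 5.76 and 3.02, with Csf2ra at 136 and 23.6 CPM. Csf3r, the receptor of the neutrophil growth factor, stood closer, at 45.9 and 33.0 CPM, and Tnfrsf1a, a tumour necrosis factor receptor, was level at 79.9 and 79.6 CPM. Of the chemokine receptors 4 of the 5 that passed were at least 2-fold higher in the Sca-1-negative library, with Cxcr4, the receptor that holds cells in marrow, with 140 and 62 UMIs (ratio 4.004, 2.95 to 5.49).

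Families of related genes split between the gates. In the Ly6 family Ly6a stood with Ly6d and Ly6k in the Sca-1-positive library, while Ly6c1, Ly6c2, Ly6g and Ly6i were at least 2-fold higher in the Sca-1-negative library and Ly6e was near level (966 and 1096 CPM). Ly6c2, the Ly6C antigen of monocytes, stood at 2103 and 448 CPM, a ratio of 4.70 that became 12.1 without Jchain-high cells, of which 48.1% had a UMI of it after thinning. Ly6d, a lymphoid antigen, was 2.68-fold higher in the Sca-1-positive library over all cells and at 113 and 100 CPM without them, and the 213 UMIs of Ly6k lay in 15 Sca-1-positive cells. Ifitm1, an interferon-induced membrane protein found in stem cells, stood at 158 and 1879 CPM (11.9-fold, 10.9 to 13.1), and its relative Ifitm6 at 493 and 14.7 CPM, a ratio of 33.5 (26.8 to 42.3). Ifitm2 and Ifitm3 were within 1.5-fold. The Gimap genes are small GTPases of lymphocytes also used by stem cells. In the Sca-1-positive library 7 of 8 were at least 2-fold higher, beside 18.4% of all genes tested, led by Gimap5 (11.7-fold) and Gimap1 (11.5-fold).

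**Figure D3:**
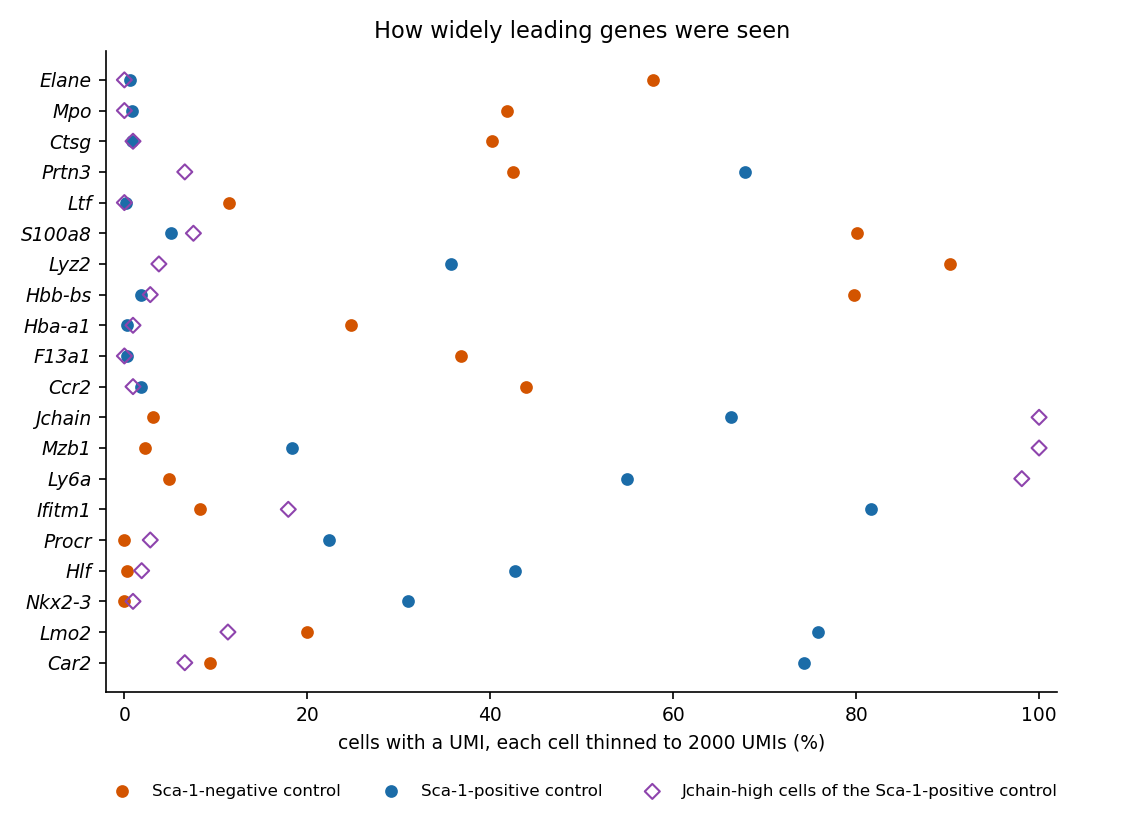
Share of cells (%) with at least 1 UMI of each gene after thinning to 2000 UMIs, in the Sca-1-negative control, the Sca-1-positive control and the Jchain-high cells of the Sca-1-positive control. Prtn3 is seen in 42.5% and 67.8% of the cells, apart from Elane at 57.8% and 0.633%.

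Of 12 class I antigen presentation genes 5 were at least 2-fold higher in the Sca-1-positive library and 0 in the other. The shares over all genes tested were 18.4% and 9.19%. The list's median log2 ratio was -0.92. H2-K1, a classical class I chain, stood at 593 and 1331 CPM (2.24-fold), H2-Q7, a nonclassical one, at 81.1 and 276 CPM (3.40-fold), and B2m, the shared light chain, at 2671 and 5206 CPM (1.95-fold), whereas H2-D1, the other classical chain, differed by only 1.14-fold. Of 9 class II genes 2 were at least 2-fold higher there, H2-Oa and H2-Ob, which modulate peptide loading, a share near the 18.4% over all genes tested, and the median was -0.55. The labelled-knockout pair had 7 of 9, beside 21.6% of all genes tested there, with a median of -2.51. Cd74, the invariant chain, stood at 870 and 1546 CPM over all cells and at 708 and 718 CPM without Jchain-high cells.

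Immediate-early genes, induced within minutes of a stimulus and also by handling of cells, had a median log2 ratio of -0.68. Of 14, 5 were at least 2-fold higher in the Sca-1-positive library and 1 in the other, beside 18.4% and 9.19% of all genes tested. Egr1, a zinc finger factor, was 5.60-fold higher there, Fosb 4.17-fold and Jund 2.44-fold, both AP-1 subunits. Atf3, a stress-induced factor of the same family, was the exception, at 101 and 6.56 CPM, a ratio of 15.3 (10.9 to 22.2). In the labelled-knockout pair 13 of 14 were at least 2-fold higher in the Sca-1-positive library, beside 21.6% of all genes tested. Atf3 was level in that pair at 24.97 and 22.7 CPM. Interferon response genes had a median of 0.042, with 5 of 14 at least 2-fold higher in the Sca-1-negative and 1 in the Sca-1-positive library. The shares over all genes tested were 9.19% and 18.4%, so the 1 of 14 did not exceed its share. The genes ran from Ifi27l2a at 518 and 74.5 CPM to Ifi44, 7.46-fold higher in the Sca-1-positive library. In the labelled-knockout pair 8 of the 10 that passed were at least 2-fold higher in the Sca-1-positive library and 0 in the other, with a median of -2.05. Over all genes tested in that pair the shares were 21.6% and 9.77%.

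Cell cycle genes were higher in the Sca-1-negative library. Of 16 S phase genes 9 were at least 2-fold higher there, beside 9.19% of all genes tested, and 0 in the other. Their median log2 ratio was 1.02. Rrm2, a subunit of the enzyme that makes deoxynucleotides, stood at 153 and 19.9 CPM (7.69, 6.25 to 9.54), and Pcna, the sliding clamp of replication, at 97.8 and 41.7 CPM (2.35). The helicase genes Mcm6 and Mcm7 were closer, at ratios of 1.16 and 1.34. Of 15 G2/M genes that passed 3 were at least 2-fold higher, with a median of 0.50 and Birc5, survivin, at 173 and 75.2 CPM (2.30). Without Jchain-high cells 6 of 16 S phase and 1 of 15 G2/M genes passed 2-fold, beside 8.97% of all genes tested. The G2/M genes did not exceed that share. In the labelled-knockout pair 16 of 16 S phase and 11 of 16 G2/M genes passed 2-fold, beside 9.77% of all genes tested.

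Lysosome genes were at least 2-fold higher in the Sca-1-negative library for 8 of 14, beside 9.19% of all genes tested. Cd68, a macrophage lysosomal protein, stood at 119 and 17.0 CPM (6.98) and Ctss, cathepsin S, at 607 and 177 CPM (3.42). Of the oxidase subunits, Ncf1 had a ratio of 10.7 and Cybb, the catalytic chain, one of 9.54, whereas the antioxidant gene Sod1 was 1.61-fold higher in the Sca-1-positive library. S100a4 and S100a6, calcium-binding proteins of motile cells, had ratios of 9.21 and 7.14. Tmsb4x, which sequesters actin monomers, stood at 12822 and 2827 CPM (4.54). In glycolysis Eno1, enolase, had a ratio of 4.65 and Pfkl, phosphofructokinase, was 2.54-fold higher in the Sca-1-positive library, with a list median of 0.64.

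Genes of general use were among those with the largest differences in CPM toward the Sca-1-positive library. Malat1, a nuclear long noncoding RNA, stood at 5559 and 14236 CPM (2.56-fold), Eef1a1, which brings transfer RNA to the ribosome, at 3878 and 8622 CPM (2.22-fold), and Eef2, which moves the ribosome along, at 1113 and 2946 CPM (2.65-fold). Ribosomal protein genes had a median log2 ratio of -0.39 beside -0.27 over all genes tested, with 0 of 80 at least 2-fold higher in the Sca-1-negative library and 1 in the other.

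Single cells of both gates differed in their markers. UMIs of at least 3 stem and progenitor genes were seen in 2.28% (0.989 to 4.44) of thinned Sca-1-negative and 70.5% (67.2 to 73.7) of thinned Sca-1-positive cells, and in 81.3% of the latter that were not Jchain-high. At least 3 later neutrophil genes were seen in 65.8% (60.6 to 70.8) and 0.506% (0.138 to 1.29), 3 monocyte genes in 64.1% (58.8 to 69.1) and 1.77% (0.972 to 2.96), and 3 primary granule genes in 46.2% and 3.42%. Unthinned, the stem and progenitor shares were 9.40% and 80.0%, the later neutrophil shares 91.7% and 1.12%, the monocyte shares 85.5% and 9.18% and the primary granule shares 80.6% and 16.7%. At least 3 erythroid genes were seen in 21.1% of Sca-1-negative and 3.42% of Sca-1-positive cells after thinning, and in 69.2% and 16.9% before it. In thinned Jchain-high cells of the Sca-1-positive library these shares were 0.943% for stem and progenitor genes and 0 of 106 for the other 4 lists. The Sca-1-negative library had only 2 Jchain-high cells, too few to gauge free RNA there. Of these 2 thinned cells, 2 had at least 3 later neutrophil genes, 1 had 3 monocyte genes and 1 had 3 primary granule genes. For stem and progenitor and for erythroid genes the count was 0. The shares of different lists overlapped in the Sca-1-negative library, where Hbb-bs UMIs were seen in 341 of 351 cells although 7 cells held 50% of them. The part of free RNA in these shares was not tested.

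**Figure D4:**
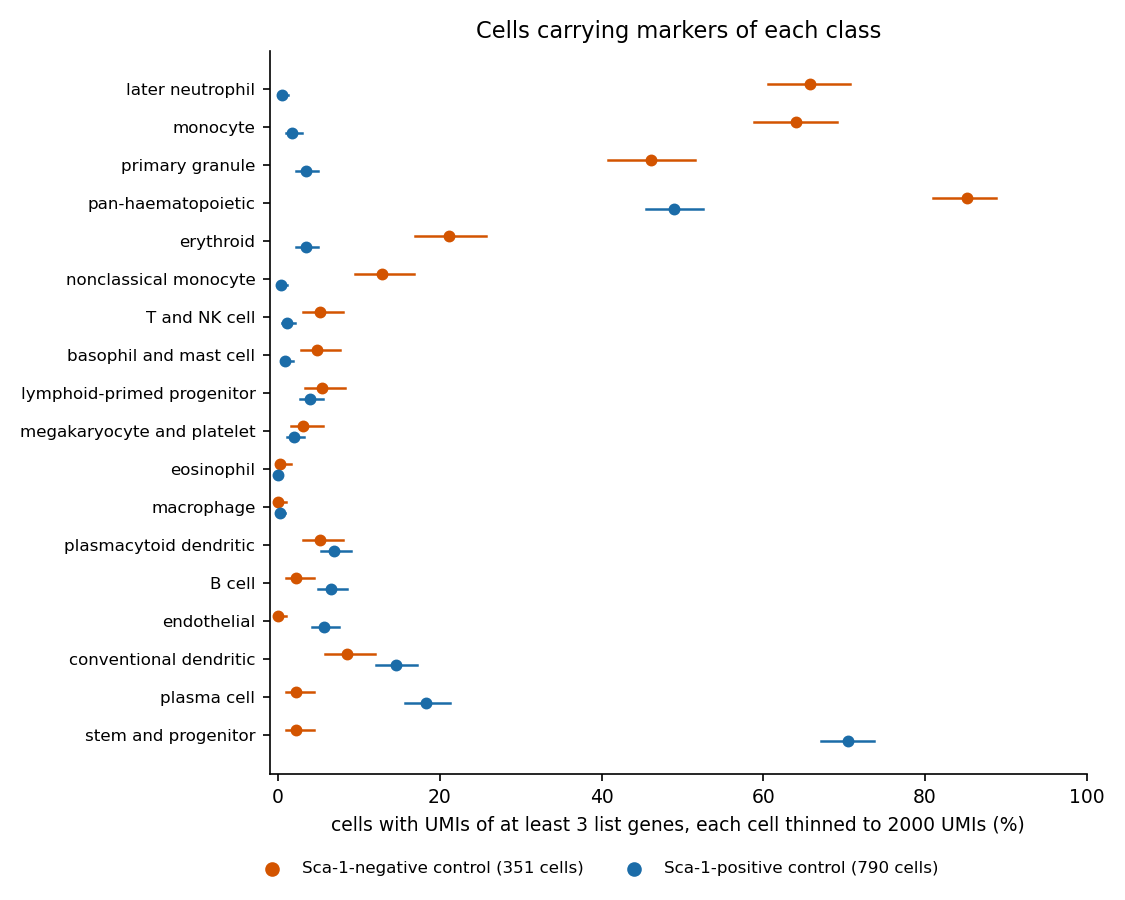
Share of cells (%) with UMIs of at least 3 genes of each marker list after thinning to 2000 UMIs, with exact binomial intervals, in 351 Sca-1-negative and 790 Sca-1-positive control cells. Stem and progenitor markers reach 70.5% in the Sca-1-positive library and 2.28% in the other, and later neutrophil markers 0.506% and 65.8%.

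The labelled-knockout pair gave the gate difference a second time, over 553 Sca-1-negative and 1857 Sca-1-positive cells. Of its 7806 genes with a mean of at least 10 CPM, 763 (9.77%) and 1688 (21.6%) were at least 2-fold higher in the Sca-1-negative and Sca-1-positive library, and 782 (9.98%) and 1796 (22.9%) of 7839 without Jchain-high cells. Of the 725 genes at least 2-fold higher in the Sca-1-negative control, 527 (72.7%) were so in this pair and 15 (2.07%) were at least 2-fold the other way. Of the 1449 genes at least 2-fold higher in the Sca-1-positive control, 1147 (79.2%) were so and 0 the other way. Median depth per cell was 15428 UMIs in the Sca-1-negative and 5597 in the Sca-1-positive library of this pair, a gap the control pair did not have.

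Of the 12 genes named by their ratio toward the Sca-1-negative control, 11 were at least 2-fold higher there in the second pair, and 10 without Jchain-high cells. Only 7 of the 12 reached a mean of 10 CPM in the second pair in either version, so both counts include genes below the level filter. Elane, Mpo and Ctsg had larger ratios in it, 200, 228 and 210. Ltf, by contrast, stood at 84.9 and 40.5 CPM, a ratio of 2.10 in place of 158, and Lcn2 at 158 and 52.1 CPM. S100a8, Ngp and Camp stood at 9436, 2429 and 3093 CPM in that Sca-1-negative library. Each of these 5 later genes was thus lower, and Elane, Mpo and Ctsg higher, than in the Sca-1-negative control, a difference that was not tested. Klra4 gave 0 UMIs in both libraries of the pair. All 12 genes of the Sca-1-positive side were at least 2-fold higher there again, among them Hlf (49.96-fold), Nkx2-3 (125-fold), Trim47 (111-fold), Procr (134-fold) and Vldlr (10.9-fold). The stem and progenitor list repeated with a median of -4.18 and the primary granule list with 4.92, while the later neutrophil median was 3.57.

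**Figure D5:**
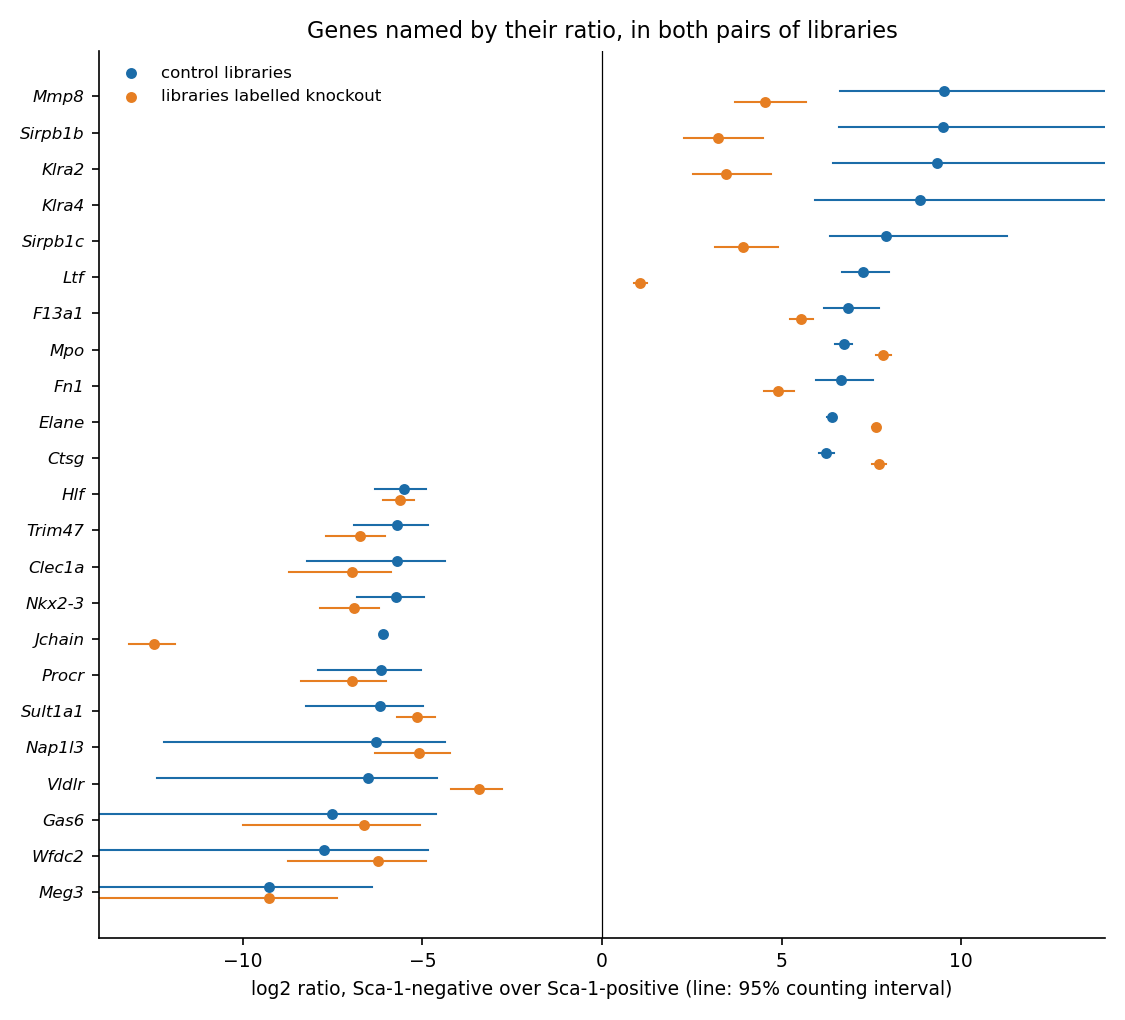
Log2 ratio, Sca-1-negative over Sca-1-positive, with 95% counting intervals for the genes named by their ratio in the control pair, 12 higher in the Sca-1-positive and 11 in the Sca-1-negative library, and for the same genes in the labelled-knockout pair. Lines that reach the edge go on beyond it, Klra4 has no point in the second pair, and Ltf moves from a ratio of 158 to one of 2.10.

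Cells could also be divided by sex-linked RNA within each control library. In the 62 and 170 cells that had Xist without Y-linked RNA, 936 (12.1%) and 1545 (20.0%) of 7737 genes were at least 2-fold higher in the Sca-1-negative and Sca-1-positive library. In the 163 and 423 cells that had Y-linked RNA without Xist, the counts were 714 (9.02%) and 1434 (18.1%) of 7917. Of the 725 Sca-1-negative genes 640 and 650 kept a difference of at least 2-fold in these cells, and of the 1449 Sca-1-positive genes 1160 and 1264. These cells are part of those that gave the counts, so this is no second measurement. The globins differed in size between them. Hbb-bs stood at 13189 and 9.56 CPM in the Xist cells, a ratio of 1380 (771 to 2766). In the Y-linked cells it stood at 6381 and 1465 CPM, a ratio of 4.35, and there the Sca-1-positive library held the 1 cell with 4564 of its UMIs.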

How the data were processed

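Single-cell RNA was captured on the 10x Chromium and sequenced, and each library's matrix holds UMI counts per gene and barcode, deposited by the authors. Cell Ranger and Seurat are named as tools, and mm10 as the build, in the submitters' processing notes, with no versions of the tools. From the deposited counts, rows sharing a symbol (65) were summed, barcodes with 200 or more genes and less than 10% mitochondrial UMIs kept, UMIs summed per library and ratios of CPM formed with exact conditional 95% intervals (Python 3.11.15, numpy 2.4.6, scipy 1.17.1, pandas 2.3.3, matplotlib 3.10.9). Log2 ratios had 0.5 UMI added to each sum. Genes with a mean of at least 10 CPM were tested against a fold of 2, a rule of size and not a test of significance. Genes with 0 UMIs in a library were set against 3 UMIs there.

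Doublets were marked with Scrublet (scanpy 1.11.5), 5 and 1 cells, and kept. Cells were not clustered. Shares of cells were computed after thinning each cell to 2000 UMIs, with exact Clopper-Pearson intervals. The ratio step was checked on simulated counts with 200 changed genes. UMIs of 1 library are not replicates of a condition, so the intervals do not cover differences between animals.

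Named were 12 genes per direction by the ratio bound nearest to 1 in both versions, 6 per direction by CPM difference and up to 4 per list by mean CPM, with all members of the gate, lineage, Id and E protein and Ly6 lists. Of these, 3 genes are not reported here. Further list members were named after their values were seen. The members and all 44 lists were chosen with earlier results of these data known. Of the listed symbols 14 matched no row. Gene positions are from GENCODE M21 (GRCm38). The alternatives tried are given in the closing section.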

Additional observations from a re-analysis of the deposited data

Results flagged for a closer look

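Of the 171 named genes that passed the level filter, 8 had a gate ratio on one side of 1 in the control pair and on the other side in the labelled-knockout pair, with intervals that excluded 1 in both. The difference between the pairs was not tested, since each pair is 1 library per gate. Ppbp, a platelet chemokine, had a ratio of 49.96 in the controls, where 1 cell held most of its UMIs, and 0.177 (0.0197 to 0.762) in the labelled-knockout pair. Ccl5, a chemokine of cytotoxic lymphocytes and platelets, had ratios of 6.91 and 0.459. Ptprc, the CD45 gene, had ratios of 1.84 and 0.779. The interferon-induced genes Isg15 and Ifitm3 had ratios of 2.46 and 1.35 in the controls and of 0.585 and 0.5003 in the other pair. Cd9, a tetraspanin of platelets and progenitors, had ratios of 1.25 and 0.832. Ldha, lactate dehydrogenase, and Ssr4, a subunit of the translocon-associated complex, went the other way, from 0.897 to 1.32 and from 0.743 to 1.32.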

How the results depend on the processing

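The alternatives for the summed values were run on both counts, on the list medians and on the named genes. The counts of genes at least 2-fold higher in the Sca-1-negative and Sca-1-positive library were 708 and 1454 with no cell filter, 767 and 1423 with a strict one, 721 and 1431 without Scrublet-marked cells, 885 and 1486 by the mean of per-cell CPM and 951 and 1530 after thinning. They were 297 and 290 of 2690 genes with a mean of at least 50 CPM and 2215 and 4510 of 16063 genes with no filter on low genes, where fewer and more genes were tested. With totals that left out Jchain, mitochondrial and ribosomal protein genes, 2628 genes were higher in the Sca-1-positive library, with a median log2 ratio of -0.55 over 9067 genes. The cause of that shift was not tested. Over all alternatives 391 list medians stayed within 1.5-fold, 70 moved further and 6 turned. Of the values of named genes 1345 stayed within their counting interval, 773 moved out of it and 5 turned. Turned here means a change of sign of a value that was at least 2-fold from level in the main version, for genes above the level filter. Smaller values that changed sign are not in these counts. An example is the protein folding and secretion median, which went from -0.41 to 0.72 without Jchain-high cells. Without Jchain-high cells the B cell median turned to 0.21 and Ly6d to 0.17, Vpreb3 to 0.62 and Xbp1 to 0.37 on the log2 scale. With no filter on low genes the B cell median was 0.060, the lineage antigen median -0.21 and the macrophage median -0.0652. In cells that had Xist without Y-linked RNA the megakaryocyte and platelet median was -2.02, the macrophage median -0.81, Pf4 -3.80 and Ppbp -1.05. The values without the richest cell of a gene were chosen after seeing the data. No paired analysis was possible because each group is 1 library. Depth limits the ratios of genes near 10 CPM most, since few UMIs stand behind them.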
